A study of Mus musculus with 10 samples.

Results

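The genes described here are 10 core genes of the transforming growth factor beta (TGF-β) pathway, namely the ligand genes *Tgfb1*, *Tgfb2* and *Tgfb3*, the receptor genes *Tgfbr1*, *Tgfbr2* and *Tgfbr3*, and the SMAD genes *Smad2*, *Smad3*, *Smad4* and *Smad7*. They were chosen by name, and every ZFP266 binding site that overlapped one of them or lay within 50 kb of it was taken, which gave 50 of the 15119 sites. ZFP266, a KRAB zinc finger protein, was mapped in mouse embryonic fibroblasts (MEFs) by DamID-seq. MEFs of the 129 strain were nucleofected with the plasmid PGK-mO-Dam (Dam only, 5 samples) or PGK-mO-Dam-Zfp266 (Dam-ZFP266, 5 samples), were sorted after 48 h, and 32 ng of genomic DNA per sample went into each library. In both plasmids the PGK promoter drives an mOrange reading frame, and Dam is made from a second frame by translation reinitiation, which keeps its level low. No deletion or drug was applied in either group, so ZFP266 bound to DNA here is a plasmid-borne fusion protein that was present beside the cells' own ZFP266. The labels do not say whether the 5 samples of a group came from separate cultures or embryos.

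In DamID, the bacterial methyltransferase Dam marks the adenine of GATC sequences near the site where its fusion partner sits, and Dam without a partner marks accessible chromatin and serves as the background. The authors compared the Dam-ZFP266 with the Dam only samples, all 10 together, to call the peaks, and each peak is a run of whole fragments between neighbouring GATC sites. Each peak therefore has 1 signal value and 1 q (its false discovery rate), with no value per sample, an unknown read depth and no replicate error, and the comparisons below are counts and values without tests. The scale of the signal value is not stated, so it is used to order peaks and not as a fold change. The list runs up to q = 0.09996, and 24 of the 50 peaks had q of 0.05 or more. A list of binding sites holds no expression, so neither the identity of the cells nor the activity of the pathway could be checked in it.

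TGF-β ligands are secreted in a latent form, and once released they bring together the type II receptor TGFBR2 and the type I receptor TGFBR1, with TGFBR3 (betaglycan) as a co-receptor that presents the ligand. TGFBR1 phosphorylates SMAD2 and SMAD3, which enter the nucleus with SMAD4, while SMAD7 is an inhibitor that the pathway induces against itself. In fibroblasts the pathway drives matrix production and mesenchymal genes, and it is known as a barrier to the reprogramming of MEFs to pluripotency. Activated SMAD complexes often bind DNA beside AP-1, the FOS and JUN family of transcription factors. B1 SINEs are short retrotransposed repeats of the mouse genome that derive from the 7SL RNA. KRAB zinc finger proteins as a family are known for binding transposable elements.

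The sequences that follow show what the peaks of these genes contain. A B1 query was first built from 2027 copies in the reference genome, as the most frequent base at each position, and it is given here because all B1 SINEs below are measured against it.

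B1 query, 141 bases: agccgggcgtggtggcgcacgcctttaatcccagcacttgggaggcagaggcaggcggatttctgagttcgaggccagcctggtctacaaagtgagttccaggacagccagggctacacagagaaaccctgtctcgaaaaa

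Both peaks of *Tgfb1* contained a B1 SINE. In these copies, and in those of *Tgfbr3* and *Smad3*, capitals mark the bases that are inserted or differ from the query. The coordinates are those of GRCm38, and each copy is written in the direction of the query.
*Tgfb1*, upstream, chr7:25675938-25676077, plus strand, 95.7% identity: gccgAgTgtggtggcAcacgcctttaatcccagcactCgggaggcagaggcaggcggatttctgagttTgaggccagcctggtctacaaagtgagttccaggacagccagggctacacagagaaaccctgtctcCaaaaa
*Tgfb1*, intron 5, chr7:25700284-25700424, minus strand, 92.9% identity: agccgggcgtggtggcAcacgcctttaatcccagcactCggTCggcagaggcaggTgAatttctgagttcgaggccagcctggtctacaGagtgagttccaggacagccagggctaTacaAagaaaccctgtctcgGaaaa
*Tgfbr3*, intron 2, chr5:107263127-107263259, plus strand, 95.5% identity: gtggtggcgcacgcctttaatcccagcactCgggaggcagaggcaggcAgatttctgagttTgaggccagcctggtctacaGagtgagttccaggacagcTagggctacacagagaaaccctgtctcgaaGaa
*Tgfbr3*, intron 3, chr5:107190542-107190681, minus strand, 78.6% identity, the lowest of the 16 copies: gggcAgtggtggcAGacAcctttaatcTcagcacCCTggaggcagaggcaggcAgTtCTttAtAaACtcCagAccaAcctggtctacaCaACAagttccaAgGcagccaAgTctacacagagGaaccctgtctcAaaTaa
*Smad3*, intron 1, chr9:63679757-63679862, plus strand, 89.6% identity, the only copy in the 11 *Smad3* peaks: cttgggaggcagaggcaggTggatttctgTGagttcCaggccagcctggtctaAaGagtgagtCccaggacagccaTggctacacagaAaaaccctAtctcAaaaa

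The AP-1 core motif was searched as TGACTCA or TGAGTCA, which are the same site read on either strand and were matched on both. Capitals mark the motif in the following sites, which come from the peaks of *Tgfb2*, *Tgfb3*, *Tgfbr2*, *Tgfbr3* and *Smad3* and are shown on the plus strand with 20 bases on each side.
*Tgfb2*, intron 2, chr1:186681408-186681454: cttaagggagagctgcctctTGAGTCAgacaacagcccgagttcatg
*Tgfb2*, upstream, chr1:186729903-186729949: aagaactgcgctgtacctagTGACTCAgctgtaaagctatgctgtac
*Tgfb3*, downstream, chr12:86014803-86014849: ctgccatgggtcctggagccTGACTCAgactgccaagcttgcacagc
*Tgfb3*, downstream, chr12:86015224-86015270: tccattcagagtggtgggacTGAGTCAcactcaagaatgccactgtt
*Tgfbr2*, intron 5, chr9:116108461-116108507: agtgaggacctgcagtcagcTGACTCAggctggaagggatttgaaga
*Tgfbr3*, downstream, chr5:107087333-107087379: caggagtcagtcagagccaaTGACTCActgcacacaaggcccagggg
*Smad3*, intron 1, chr9:63671787-63671833: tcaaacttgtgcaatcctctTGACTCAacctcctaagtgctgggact

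In 1 peak downstream of *Tgfbr3*, chr5:107082329-107083100, both elements stood side by side. The first bases of its AP-1 motifs were 24 bases apart. Between the second motif and the B1 SINE (92.3% identity) lay 67 bases, and the B1 SINE ran past the peak's end.
*Tgfbr3*, downstream, chr5:107082899-107083158, AP-1 motifs in capitals: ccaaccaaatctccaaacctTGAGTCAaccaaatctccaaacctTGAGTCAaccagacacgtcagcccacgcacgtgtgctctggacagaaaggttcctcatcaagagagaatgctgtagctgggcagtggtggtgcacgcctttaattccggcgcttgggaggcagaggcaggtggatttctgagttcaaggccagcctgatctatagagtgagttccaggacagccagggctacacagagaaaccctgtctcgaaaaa

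Peaks were found in or within 50 kb of 9 of the 10 genes, the exception being *Tgfbr1*, and 7 of the 10 genes shared at least 1 base with a peak. Of all 21000 protein-coding genes, 49.7% had a peak within 50 kb and 17.1% shared a base with one. The genes of the pathway are longer than most, with a median length of 69525 bp against 16724 bp, and a longer gene offers more sequence in which a peak can fall. Among the 8989 genes whose length lay between that of *Tgfb1* (18076 bp) and that of *Tgfbr3* (183063 bp), 56.5% had a peak within 50 kb and 26.1% shared a base with one. This range matches lengths only coarsely. Of all genes, 47.8% were at least as long as *Tgfb1* but 16.4% as long as *Smad4*, whose length is near the median of the 10. Taken over the windows of all 10 genes, there were 2.88 peaks per 100 kb, against 0.786 over the windows of all genes and 0.571 over the genome. The windows of 6 of the 10 genes were denser in peaks than those of 90% of all genes, with *Smad3* (5.21 peaks per 100 kb) and *Tgfb2* (4.37) at the top. At least as many peaks within 50 kb as *Tgfb3* were found for 49.7% of all genes, and as *Tgfb1* for 27.4%. The share was 8.75% for *Smad2* and *Smad7*, and 5.24% for *Tgfbr2* and *Smad4*. By role, 11 peaks belonged to the ligand genes, 15 to the receptor genes and 24 to the SMAD genes.

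**Figure D1:**
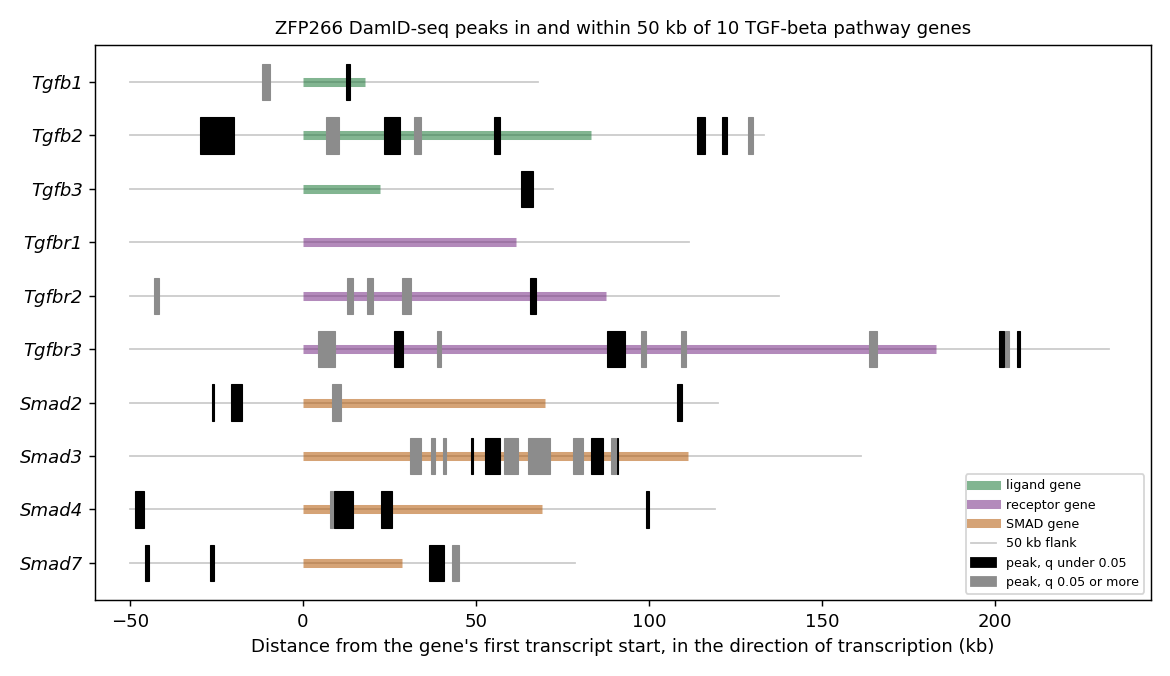
Position of the 50 peaks along the 10 genes. The horizontal axis gives the distance from the first transcript start of each gene in kb, in the direction of transcription, the coloured bars are the genes, the thin lines are their 50 kb flanks, and each block is a peak drawn to its length, black where q was under 0.05 and grey where it was higher. The 11 *Smad3* peaks lie inside the gene, whereas *Tgfbr1* has none and no peak covers a transcript start of the 10 genes.

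**Figure D2:**
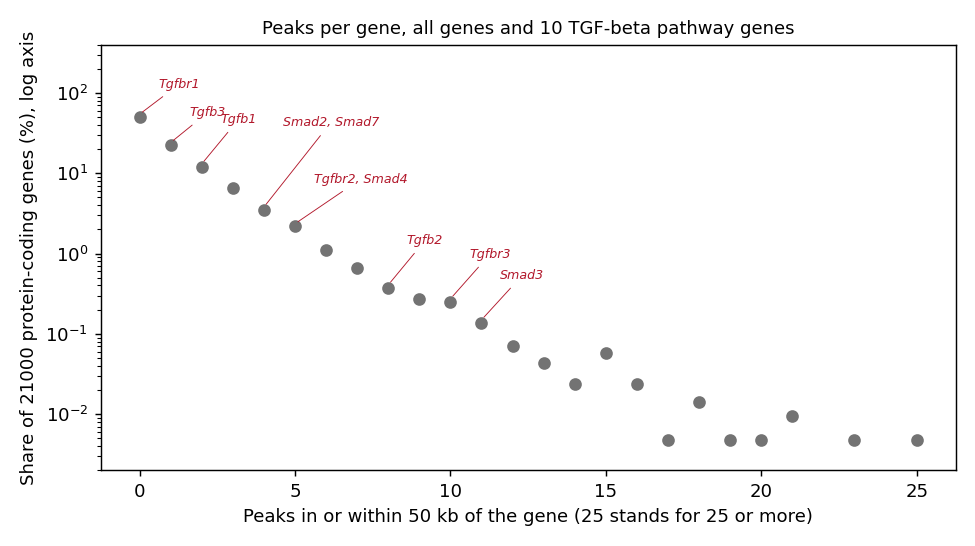
Number of peaks in or within 50 kb of a gene (horizontal axis) against the share of the 21000 protein-coding genes with that number (vertical axis, percent, log scale). The grey points are all genes, and the red names mark the 10 genes of the pathway, from *Tgfbr1* with 0 to *Smad3* with 11 peaks.

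None of the 50 peaks had its midpoint in a promoter, counted here from 1000 bp before a transcript start to 100 bp after it, or in an exon. The closest midpoint to a transcript start of any of the 10 genes was 6.82 kb away, in intron 1 of *Tgfbr3*. Of the 50 peaks, 31 overlapped the gene itself, each with its midpoint in an intron, 8 lay upstream and 11 downstream. Over all genes, 35 midpoints (70%) were intronic and 15 (30%) intergenic. Among all 15119 peaks 45.7% were intronic, 49.9% intergenic, 2.09% exonic and 350 (2.31%) at a promoter, a share at which 50 peaks would hold few promoter peaks or none. The 50 peaks were taken because they lay in or near genes, which by itself favours introns, so the intronic shares are not those of like sets. Exons of the 10 genes were touched by 4 peaks, which covered 164 coding bases of exon 3 of *Tgfb2*, 284 of exon 5 of *Tgfbr2* and 194 of exon 2 of *Smad3*, and no coding base in exon 2 of *Smad4*.

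*Tgfb1* (chr7:25687002-25705077, plus strand), which encodes the most widely expressed of the ligands, had 2 peaks. The peak in intron 5, chr7:25699339-25700536, was a single fragment of 1198 bp with a signal value of 1.57 and q = 0.0128. Its signal value was higher than that of 98.0% of all peaks, and 58.3% of its bases were annotated as repeats. The other peak, chr7:25675078-25677354, lay 9648 bp upstream of the gene, shared bases with *Tmem91* and was weaker, with a signal value of 0.641 and q = 0.0616. It held an AP-1 motif 181 bases from its B1 SINE.

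*Tgfb2* (chr1:186622792-186705989, minus strand), which encodes a ligand needed for heart, palate and eye development, had 8 peaks, 4 of them in the gene. Of the 21000 genes, 274 (1.30%) had 8 or more peaks within 50 kb and 451 (2.15%) had 4 or more inside them. By length, 13.6% were at least as long as *Tgfb2*. The strongest *Tgfb2* peak by signal value lay 30579 bp downstream of the gene in an intron of *Gm35546*, chr1:186589878-186592213, with a signal value of 1.60, the highest of the 50 peaks, and q = 0.00101. The lowest q at this gene was in intron 2, chr1:186677833-186682480, where a peak of 4648 bp reached q = 0.000891 at a signal value of 0.775. The peak that touched exon 3 of *Tgfb2* had a signal value of 1.38 and q = 0.00392. The longest of the 50 peaks, 9823 bp and 6 fragments, began 20064 bp upstream of *Tgfb2* in *Rrp15*, with a signal value of 1.07 and q = 0.0147. The other 4 had signal values from 0.695 to 0.852 and q from 0.0475 to 0.0703. None of the 8 *Tgfb2* peaks held a B1 SINE, and 5 held an AP-1 motif.

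*Tgfb3* (chr12:86056743-86079041, minus strand), the ligand of palate fusion, shared no base with a peak. Its 1 peak within 50 kb, chr12:86012625-86016112, lay 40631 bp downstream of it in an intron of *Ttll5*, which encodes a tubulin glutamylase. The signal value of 0.717 and q = 0.0332 were unremarkable beside the medians of all peaks, 0.898 and 0.0467. This peak held both AP-1 motifs printed above, with their first bases 421 bases apart, and no B1 SINE.

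*Tgfbr1* (chr4:47353222-47414924, plus strand), the type I receptor that carries the signal to the SMADs, was the 1 gene without a peak in its window of 161703 bp. The nearest peak, chr4:47299241-47301290, was 51932 bp upstream, just outside the limit, with a signal value of 0.834 and q = 0.0946. The window held 393 GATC fragments of 411 bp on average, within the range of the other 9 windows (391 to 463 bp), and the genome average was 397 bp. It also held 35 AP-1 motifs and 11 B1 SINEs, none of which lay in a peak. Whether ZFP266 bound there below the authors' threshold cannot be read from a list of peaks.

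*Tgfbr2* (chr9:116087695-116175363, minus strand), the type II receptor that binds the ligand first, had 5 peaks, 4 of them in the gene. The peak at exon 5 and intron 5, chr9:116107995-116109787, stood well apart from the rest with a signal value of 1.41 and q = 0.00185, the 524th lowest q of all peaks. It was also the only one of the 5 with an AP-1 motif. The other 4 lay in introns 1 and 2 and upstream, with signal values from 0.525 to 1.04 and q from 0.0553 to 0.0962. None of the *Tgfbr2* peaks held a B1 SINE.

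*Tgfbr3* (chr5:107106567-107289629, minus strand), the co-receptor, had 10 peaks, 7 of them in the gene, which is the longest of the 10. Only 129 genes (0.614%) had as many or more peaks inside them and 138 (0.657%) within 50 kb, while 5% were at least as long as *Tgfbr3*. The lowest q was that of the peak 18207 bp downstream, chr5:107086907-107088360, with q = 0.00623 and a signal value of 0.866, and the highest signal value, 1.38, was that of the peak with the paired AP-1 motifs shown above (q = 0.0126). Another peak lay between them, 19997 bp from the gene, with a signal value of 0.873 and q = 0.05004. The 7 peaks within the gene had signal values from 0.507 to 1.15 and q from 0.0214 to 0.0974. B1 SINEs were found in 4 and AP-1 motifs in 7 of the 10 peaks, and 3 held both.

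*Smad2* (chr18:76241701-76311747, plus strand), a receptor-activated SMAD, had 4 peaks, 1 in the gene and 3 in its flanks. The flanking peak 38047 bp downstream, chr18:76349794-76351420, had a signal value of 1.30, q = 0.00813 and 3 AP-1 motifs, the most of any of the 50 peaks. The peak 17738 bp upstream had a signal value of 1.15 and q = 0.0148, and the peak 25633 bp upstream a signal value of 0.972 and q = 0.0497. In intron 1 of *Smad2* the peak was near the end of the list, with a signal value of 0.562 and q = 0.0982. All 4 held an AP-1 motif, and 1 held a B1 SINE, 2224 bases from its motif.

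*Smad3* (chr9:63646767-63757994, minus strand), the other receptor-activated SMAD and the one that binds DNA directly, had the most peaks of the 10 genes in the whole list. All 11 lay inside the gene and in its flanks there was none. They filled a stretch of 60.0 kb, 10 in intron 1 and 1 in intron 3, with a median gap of 2579 bp between neighbours. Only 31 of the 21000 genes (0.148%) had 11 or more peaks inside them and 85 (0.405%) within 50 kb. By length, 9.53% were at least as long as *Smad3*. The lowest q was that of chr9:63700948-63705320 in intron 1, a peak of 3 fragments with q = 0.000188, the 85th lowest of all peaks, at a signal value of only 0.566. The other 10 had signal values from 0.480 to 1.19 and q from 0.0297 to 0.0965, and 7 of the 11 had q of 0.05 or more. The lead of *Smad3* in number of peaks thus rested on the whole list. With q under 0.05 and a signal value above 1 it kept 3 peaks, as many as *Tgfb2*.

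Neither a B1 SINE nor an AP-1 motif was found in 7 of the 11 *Smad3* peaks, among them the one with the lowest q, and its central 200 bases are shown for that reason.
*Smad3*, intron 1, chr9:63703034-63703233: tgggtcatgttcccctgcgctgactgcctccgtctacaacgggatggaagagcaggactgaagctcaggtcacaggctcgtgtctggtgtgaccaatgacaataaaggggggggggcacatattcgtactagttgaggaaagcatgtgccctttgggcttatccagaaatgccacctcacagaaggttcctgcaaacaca
The *Smad3* peak nearest to the transcript start, 32.6 kb into the gene, had instead a pair of AP-1 motifs. Their first bases were 31 bases apart, and the peak had a signal value of 0.481 and q = 0.0674.
*Smad3*, intron 1, chr9:63725424-63725501, AP-1 motifs in capitals: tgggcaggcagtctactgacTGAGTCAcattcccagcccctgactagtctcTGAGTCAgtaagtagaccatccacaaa

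*Smad4* (chr18:73634790-73703791, minus strand), the common partner of the other SMADs, had 5 peaks, 3 of them in the gene. The one in intron 1, chr18:73689458-73694939, had the lowest q of all 50 peaks, 0.000121, the 69th lowest of the whole list, with a signal value of 1.08. It was 5482 bp long, and 75.3% of its bases were annotated as repeats, the highest share of the 50 peaks, yet it held neither a B1 SINE nor an AP-1 motif. A smaller peak began 219 bp beyond it, with a signal value of 0.797 and q = 0.0703. The peak at exon 2 had a signal value of 0.742 and q = 0.0172. Outside *Smad4*, a peak lay 30153 bp downstream (signal value 0.880, q = 0.0169) and another 45859 bp upstream in an intron of *Elac1*, which encodes a tRNA-processing enzyme (signal value 0.950, q = 0.0308). B1 SINEs were in 2 and AP-1 motifs in 2 other peaks of the 5.

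*Smad7* (chr18:75367365-75395934, plus strand), the inhibitory SMAD, had no peak inside it and 4 around it, all intergenic, 2 on each side. The closest, chr18:75403930-75408040, began 7996 bp downstream with a signal value of 0.892 and q = 0.00553. The highest signal value, 1.44, was that of the peak 25663 bp upstream (q = 0.0156), above 96.2% of all peaks. The remaining 2 had signal values of 1.04 (q = 0.0334, 44546 bp upstream) and 0.570 (q = 0.0750, 14528 bp downstream). All 4 *Smad7* peaks held a B1 SINE. In the peak with the highest signal value an AP-1 motif lay 41 bases from the B1 SINE, the shortest such distance at the 10 genes.

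**Figure D3:**
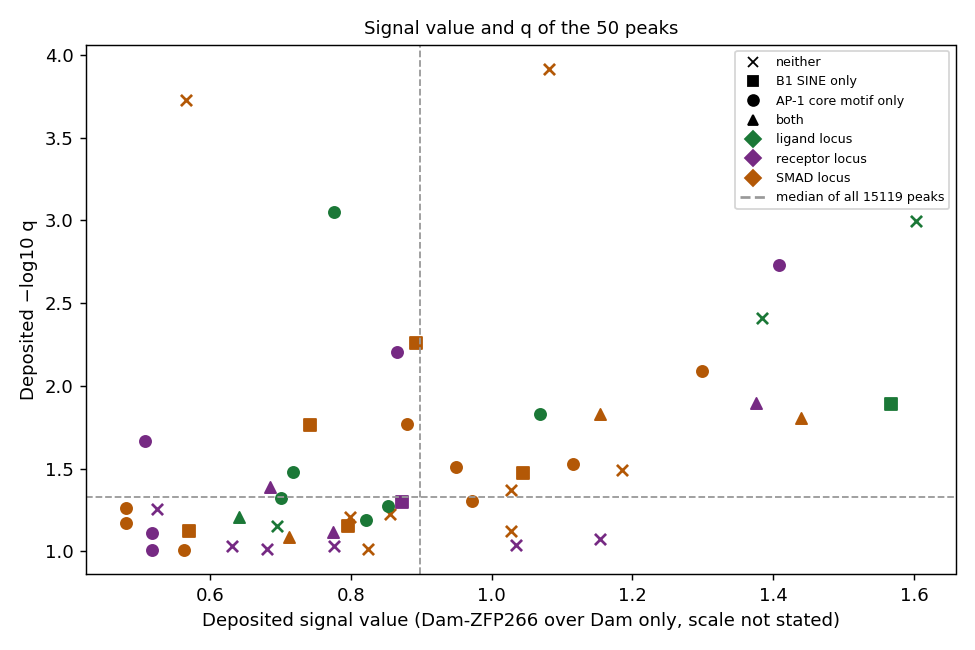
Deposited signal value (horizontal axis, Dam-ZFP266 over Dam only, scale not stated) against −log10 q (vertical axis) of the 50 peaks, coloured by the role of the gene and with the symbol giving their B1 SINE and AP-1 content. The dashed lines are the medians of all 15119 peaks, and the topmost points, 1 at *Smad4* and 1 at *Smad3*, are crosses, which hold neither element.

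In signal value, q and length the 50 peaks were close to the list they came from. Their median signal value was 0.838 against 0.898 for all peaks, their median q 0.0486 against 0.0467 and their median length 1887 bp against 1777 bp. A signal value above 1 was found for 17 of them (34%) and for 33.3% of all peaks. By role the median signal value was 0.821 at the ligand genes, 0.774 at the receptor genes and 0.886 at the SMAD genes, and these ranges overlapped widely. Peaks with q under 0.05 made up 26 of the 50 (52%) and 52.5% of all peaks, and by role they were 7 of 11 ligand peaks, 5 of 15 receptor peaks and 14 of 24 SMAD peaks.

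B1 SINEs, counted where at least 80 bp aligned to the query at 70% identity or more, were found in 14 of the 50 peaks (28%), against 32.8% of all peaks. The AP-1 core motif was found in 26 (52%), against 44.2% of all peaks. In the 31 peaks that overlapped a gene its share was close to that of the list, 13 of 31 (41.9%). B1 SINEs were in 6 of these 31 peaks (19.4%), below the 32.8% of all peaks. Both elements were present in 7 of the 50 peaks (14%, against 14.3%) and neither in 17 (34%, against 37.3%). Over all 50 peaks these shares thus lay within 8 percentage points of those of the whole list, and with 50 peaks 1 peak moves a share by 2 points. The 16 B1 SINEs were aligned over a median of 139.5 bp at a median identity of 92.6%, against 90.8% for those of all peaks, and 5 of the 16 had the orientation of the gene.

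The genes differed widely among themselves in B1 content. B1 SINEs were in both *Tgfb1* peaks and all 4 *Smad7* peaks, in 4 of 10 at *Tgfbr3*, 2 of 5 at *Smad4*, 1 of 4 at *Smad2* and 1 of 11 at *Smad3*, and in none of the 8, 5 and 1 peaks of *Tgfb2*, *Tgfbr2* and *Tgfb3*. The genes whose peaks all held a B1 SINE also had the most B1 SINEs in their windows. *Tgfb1* had 45 in 118076 bp and *Smad7* 40 in 128570 bp, whereas *Tgfb2* had 8 in 183198 bp and *Tgfbr2* 12 in 187669 bp. *Smad3* had 25 B1 SINEs in 211228 bp and 1 in its 28561 bp of peaks. Summed over the 10 genes, the windows had 1.29 B1 SINEs per 10 kb in peaks and 1.37 in the rest, and the density in all 15119 peaks was higher, 2.27 per 10 kb.

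AP-1 motifs were spread more evenly. Each window held 1.57 to 2.58 of them per 10 kb outside peaks, and each of the 9 genes with a peak had the motif in at least 1. In peaks the density was 2.74 per 10 kb, against 2.05 in the rest of the windows, 1.64 over the genome and 3.28 in all peaks. The motif was denser in the peaks at *Smad2* (7.72 per 10 kb in peaks, 1.73 outside), *Tgfb3* (5.73 and 2.19), *Tgfbr3* (3.90 and 1.96) and *Tgfb1* (2.88 and 1.57), and at *Tgfb2*, *Tgfbr2*, *Smad3*, *Smad4* and *Smad7* the motif was less dense in the peaks than around them. The counts behind these densities were small, from 1 motif at *Tgfb1*, *Tgfbr2* and *Smad7* to 9 at *Tgfbr3*.

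**Figure D4:**
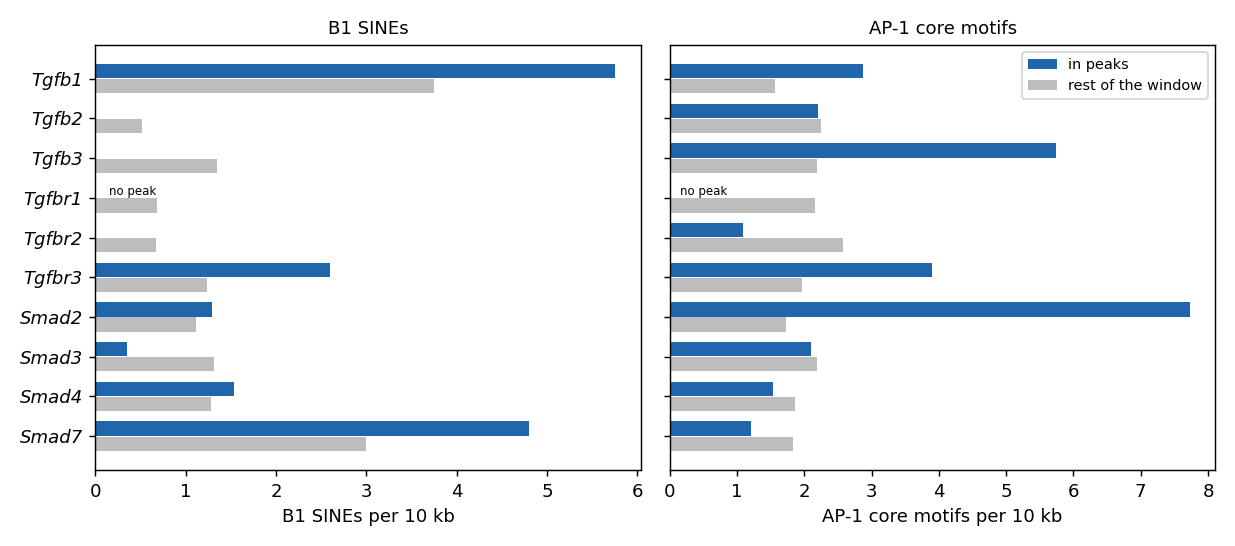
B1 SINEs (left) and AP-1 core motifs (right) per 10 kb at each gene, in peaks (blue) and in the rest of the window of the gene and 50 kb on each side (grey). *Tgfb1* and *Smad7* have the most B1 SINEs per 10 kb both in and outside peaks, *Tgfbr1* has no peak, and the blue bar for AP-1 is longest at *Smad2*.

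Further genes of the wider TGF-β superfamily, with BMP and activin ligands and receptors among them, were examined as a list of 50. They are called further pathway genes below. Of these, 33 had a peak within 50 kb and 15 shared a base with one, where the shares of all genes were 49.7% and 17.1%. A peak within 50 kb was found for 7 of 8 target genes, 6 of 7 genes for latency and activation of the ligands, 7 of 10 receptor genes, 7 of 11 regulators, 2 of 4 SMAD genes and 4 of 10 other ligand genes. The receptor genes *Acvr1b* and *Acvrl1* are neighbours with the same strongest peak, so these genes do not all count separate sites. Gene length was not taken into account here.

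*Ltbp1*, which encodes the protein that tethers latent TGF-β to the matrix, had 19 peaks inside its 386984 bp, more than any of the 10 core genes, and the highest signal value among these was 1.70 (q = 0.000860). *Ltbp2*, from the same family, had 2 peaks inside it. Among receptors, peaks lay in *Acvr1*, *Acvrl1*, *Bmpr1b* and *Bmpr2*, the last with 7 and with the highest signal value of the receptors, 1.31 (q = 0.0151). *Bmp6* was the only other ligand gene with peaks inside it, 4 in number, with a highest signal value of 1.18 (q = 0.0610). *Smad1*, which transmits BMP signals, had 1 peak with a signal value of 0.907 and q = 0.0357. The regulators with a peak inside were *Ski*, *Smurf1*, *Tgif2* and *Pmepa1*, and *Ski*, a repressor of SMAD complexes, had the highest signal value of these, 1.22 (q = 0.0694). Among the target genes, *Zeb1* and *Zeb2*, which encode repressors of epithelial genes, each had 1 peak inside, with signal values of 0.905 (q = 0.0709) and 0.487 (q = 0.0856).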

How the data were processed

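DamID-seq was performed on 5 Dam-ZFP266 and 5 Dam only samples of MEFs. The authors removed adapters with Cutadapt, aligned reads to GRCm38 with BWA, discarded mitochondrial and blacklisted reads with SAMtools and BEDtools, used Rsubread for the counts per DpnII fragment, and took peaks from Daim. FastQC and the build GRCm38.p6 are named in the submitters' processing notes, and for Cutadapt, BWA, Rsubread and Daim a version is not given in the sources used here. The deposited list holds a score, a signal value, a −log10 p-value and a −log10 q-value for each peak, from all samples pooled. The sort is described as mOrange+ in the labels and as GFP+ in the methods. The methods name, as an example, a false discovery rate under 0.05 with a log2 fold change above 1, whereas the list reaches q = 0.09996 and 17 of the 50 peaks have a signal value above 1. An alternative kept only peaks with q under 0.05 and a signal value above 1, after that setting and as if the signal value were on the log2 scale.

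Peaks were set against curated RefSeq transcripts of GRCm38.p6 (21000 genes with a curated coding transcript), with GENCODE vM21 as an alternative. Starts were converted to 1-based positions. B1 SINEs were found with blastn 2.17.0 (alignments of 80 bp or more at 70% identity or more with 1 base or more in the peak) with a query of majority bases over copies on chromosome 19, and AP-1 motifs as exact matches. Repeat shares are the soft-masked bases of the reference, which is of another strain than the cells. All sequences are from the RefSeq copy of GRCm38.p6. Steps were tested on simulated intervals and sequences. Python 3.11.15, numpy 2.4.6, pandas 2.3.3, pysam 0.24.0 and matplotlib 3.10.9 were used.

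The members and lists were chosen with earlier results of these data known. Genes named are the 10 members, other genes that their peaks overlap, and those of 50 further pathway genes that share a base with a peak. No test was made, since the list has no value per sample. Sequences from chromosome 18 and the values of 1 further pathway gene are not reported here.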

Additional observations from a re-analysis of the deposited data

How the results depend on the processing

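The count of genes with a peak stayed between 7 and 10 of 10 over 6 alternatives (peaks sharing a base with the gene, windows of 10 and 100 kb, only peaks with q under 0.05 and a signal value above 1, only the 25% of peaks with the highest score, and GENCODE gene extents), and the 10th gene, *Tgfbr1*, was reached only at 100 kb. Peaks sharing a base were found for 7 of 10 (17.1% of all genes), and a window of 10 kb gave 8 (27.2% of all genes). A window of 100 kb gave 10, but 65.4% of all genes had a peak at that distance. The top 25% by score gave 8 (19.96% of all genes), and GENCODE extents gave 9 (49.1%). The count of peaks, 50, became 31 for peaks sharing a base with the gene, 33 within 10 kb, 14 with q under 0.05 and a signal value above 1, and 17 in the top 25% by score. *Smad3* had 1 of these 17, fewer than *Tgfb2* (4), *Tgfbr3* (3), *Smad4* (3), *Smad2* (2) and *Smad7* (2). With the whole list it had the most peaks within 10 kb (11) and within 100 kb (13). Of the further pathway genes, 33 of 50 became 15 for peaks sharing a base (17.1% of all genes), 13 for the stricter q and signal value (21.9% of all genes) and 14 for the top 25% (19.96% of all genes). In the stricter subset 8 of 10 core genes had a peak, against 21.9% of all genes. The share of peaks with a B1 SINE ran from 19.4% to 35.7% over 7 alternatives. It was lowest, at 6 of 31 peaks, for those sharing a base with the gene (32.8% of all peaks). In the stricter subset it was 5 of 14 peaks (35.7%), close to the 34.5% of all peaks of that subset. The share with an AP-1 motif became 72% when the middle base was left free (TGANTCA, 57.8% of all peaks) and 32% in the central 1000 bp (26.9% of all peaks). It was close to the 44.2% of all peaks for peaks sharing a base with the gene (41.9%) and within 10 kb (42.4%). In the stricter subset it was 7 of 14 (50%), against 38.2% of all peaks of that subset. In the top 25% by score it was 10 of 17 (58.8%), against 50.4%. No paired analysis was possible because the list pools the samples and carries no column per sample, and for the same reason no sample could be left out. Read depth is unknown, so peaks that the data were too shallow to show cannot be told from absent ones.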

Other observations

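Between 50 and 100 kb from the 10 genes lay 14 more peaks, and these are values outside the counts above. Just inside the 50 kb limit were the *Elac1* peak 45859 bp upstream of *Smad4* and the peak 45386 bp downstream of *Tgfb2* (signal value 0.821, q = 0.0645). Just outside it were peaks 50236 bp from *Smad7* (signal value 0.709, q = 0.00677) and 51294 bp from *Tgfb2* (0.779 and 0.0333), and the *Tgfbr1* peak at 51932 bp. *Tgfbr1* had 4 peaks in this outer zone, of which that at 88289 bp had the lowest q, 0.0179, and a signal value of 1.18. *Smad3*, whose 50 kb flanks had no peak, had one 54554 bp upstream, chr9:63812548-63818862, with a signal value of 1.10, q = 0.00103 and an AP-1 motif. *Smad7* had 4 and *Tgfb2* 2 more, and *Tgfbr2*, *Tgfbr3*, *Smad2* and *Smad4* had none.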
